A study of Mus musculus with 48 samples.

Results

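The neuronal immediate early genes considered here are 10 genes, Fos, Fosb, Junb, Egr1, Egr2, Egr4, Arc, Npas4, Nr4a1 and Dusp1, chosen by name from the 48795 genes of the count table. RNA sequencing counted their transcripts in cerebral cortex from 48 mice on a C57BL/6 background, 12 months old, with 4 males and 4 females in each genotype of 8. The 6 genotypes were Q140 Msh3-/-, Q140 Msh3+/-, Q140, Msh3-/-, Msh3+/- and wild type (WT). Q140 mice, all labelled heterozygous, have an expanded CAG repeat knocked into Htt, which models the mutation of Huntington disease, and Msh3 encodes a DNA mismatch repair protein that promotes somatic expansion of such repeats. The labels do not describe the Msh3 alleles or their strain of origin further, and name no Cre or transgene. The comparisons ask how far the activity-regulated genes of the cortex differ with the Q140 allele, with Msh3 dose and with their combination.

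Immediate early genes are transcribed within minutes of a stimulus, without new protein synthesis, when calcium entry and MAP kinase signalling activate factors such as CREB, SRF and the ternary complex factors already bound at their promoters. In the cortex their transcripts are short-lived and follow recent neuronal activity, so they are widely used to mark neurons that were recently active. Fos, Fosb and Junb encode subunits of the AP-1 transcription factor, and Egr1, Egr2 and Egr4 encode zinc finger transcription factors of the EGR family. Npas4 encodes a calcium-induced factor of excitatory and inhibitory neurons, Nr4a1 an orphan nuclear receptor, Arc a synaptic protein that promotes AMPA receptor endocytosis, and Dusp1 a nuclear phosphatase that switches MAP kinases off.

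Windows of 250 bases directly before the RefSeq transcription start (GRCm38.p6) were available for 8 of the 10 genes, Arc and Egr1 being the others. The 5 windows below are shown because they include a transcription factor gene of each family and the MAP kinase phosphatase, whose transcripts moved together across the libraries. They lie at chr12:85473640-85473889 (plus strand) for Fos, chr10:67537619-67537868 (plus strand) for Egr2, chr19:4989972-4990221 (minus strand) for Npas4, chr15:101266596-101266845 (plus strand) for Nr4a1 and chr17:26508473-26508722 (minus strand) for Dusp1. The gene coordinates given further below are GENCODE spans. Those of Egr2, Npas4, Nr4a1 and Dusp1 begin upstream of the RefSeq start, so these windows lie inside the spans. Capitals mark TGACG, the core of the CREB binding site, or its reverse complement, 5′ to 3′ on the strand of the gene.
Fos: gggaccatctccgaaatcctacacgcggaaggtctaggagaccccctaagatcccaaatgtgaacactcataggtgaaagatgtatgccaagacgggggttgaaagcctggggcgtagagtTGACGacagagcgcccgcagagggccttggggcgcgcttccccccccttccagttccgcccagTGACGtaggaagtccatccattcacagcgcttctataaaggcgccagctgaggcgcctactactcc
Egr2: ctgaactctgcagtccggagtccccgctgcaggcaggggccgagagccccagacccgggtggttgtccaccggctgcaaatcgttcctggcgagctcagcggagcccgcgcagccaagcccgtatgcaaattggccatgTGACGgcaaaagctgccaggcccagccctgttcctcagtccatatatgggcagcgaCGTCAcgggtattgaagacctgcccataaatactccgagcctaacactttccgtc
Npas4: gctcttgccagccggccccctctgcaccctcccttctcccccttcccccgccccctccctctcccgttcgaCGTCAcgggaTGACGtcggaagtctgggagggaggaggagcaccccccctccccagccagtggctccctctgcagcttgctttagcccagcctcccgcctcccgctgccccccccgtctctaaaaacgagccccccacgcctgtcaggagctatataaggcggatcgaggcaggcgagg
Nr4a1: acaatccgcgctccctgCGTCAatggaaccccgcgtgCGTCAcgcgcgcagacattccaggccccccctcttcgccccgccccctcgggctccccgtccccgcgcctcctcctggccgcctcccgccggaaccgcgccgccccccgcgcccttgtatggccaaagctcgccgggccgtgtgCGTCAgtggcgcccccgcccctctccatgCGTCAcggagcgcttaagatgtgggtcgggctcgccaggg
Dusp1: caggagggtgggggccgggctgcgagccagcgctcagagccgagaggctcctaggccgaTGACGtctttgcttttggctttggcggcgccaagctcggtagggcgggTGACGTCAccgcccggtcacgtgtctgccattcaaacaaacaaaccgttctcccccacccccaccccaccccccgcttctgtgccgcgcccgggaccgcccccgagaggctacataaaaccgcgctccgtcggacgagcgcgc
TGACG was present on either strand in 8 of 8 windows, and in 17.8% of 32851 RefSeq windows of the same length. Counted from the transcription start, its first base lay between -233 and -40, both in Nr4a1. Nr4a1 held 4 copies, Dusp1 held 3, and Fosb and Junb held 1 each. The full palindrome TGACGTCA, which contains TGACG on both strands, was in the Dusp1 window alone and in 1.55% of all windows. The CArG box, the SRF site, was in the Egr2 window alone (1.47% of all), TATAAA in the Fos window alone (12.4%), and GCGNGGGCG, the EGR site, in those of Fosb and Nr4a1 (4.7%). No window held the AP-1 site TGANTCA (6.75% of all) or the NR4A site AAAGGTCA (1.34%). These 7 motifs were searched on both strands, after the expression values had been seen, and a match is a description of the letters only.

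The library totals ran from 37.7 to 68.3 M (mega) counts, the median being 48.6 M, and all 10 genes passed the filter on low counts that left 19547 genes. The smallest count of any member in any library was 105, for Egr2, where counting error alone is 9.76%. Markers of glutamatergic cortical neurons were abundant in every library, with 5 of 5 measured and a summed level of 1670 to 1970 CPM (counts per M of the normalised library total). Msh3 itself had 95.3 ± 8.03 CPM in Q140 Msh3-/-, 57.9 ± 3.01 CPM in Q140 Msh3+/-, 21.8 ± 0.979 CPM in Q140, 99.2 ± 8.15 CPM in Msh3-/-, 60.1 ± 3.06 CPM in Msh3+/- and 22.4 ± 1.16 CPM in WT cortex (SD, n = 8 each). The 3 labelled Msh3 doses were thus separate in every library, but counts were higher in the mutants, so this check orders the libraries by dose and shows no loss of transcript. In 5 libraries, males 1, 2 and 3 of Msh3+/- and males 2 and 3 of WT, markers of choroid plexus (1 library) or pituitary (4 libraries) lay over 3 scaled median absolute deviations above the median, and results are also given without them where that matters. In bulk tissue, fewer cells of a type and less RNA per cell cannot be told apart.

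Per length, the 10 genes spanned a wide range of levels. In the deposited FPKM values, Arc was highest with a median of 163 over the 48 libraries, followed by Egr1 with 153. Those 2 changed places between libraries, Arc being above Egr1 in 27 of 48. Nr4a1 (70.1 FPKM) and Junb (37.2 FPKM) came next, and each stood above its next gene in at least 47 libraries. Fos (25.7 FPKM) exceeded Dusp1 (24.6 FPKM) in 36 of 48, so that pair also overlapped. Egr4 had 12.5, Npas4 10.8, Egr2 4.19 and Fosb 3.67 FPKM. Egr4 was above Npas4 in 33 libraries and Egr2 above Fosb in 30. Junb overlaps Prdx2 and Dusp1 overlaps Ergic1 on the opposite strand, and the strand setting of the counting is not stated, so reads from these partners could be included in the values of Junb and Dusp1.

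The AP-1 genes differed more among mice of a genotype than between genotypes. Fos (ENSMUSG00000021250, chr12:85473890-85477273) ranged from 32.4 to 86 CPM in Q140 Msh3-/- (median 67.4) and from 30.4 to 74.9 CPM in Q140 Msh3+/- (median 56). It ranged from 18.7 to 104 CPM in Q140 (median 50.9), from 26.1 to 89 CPM in Msh3-/- (median 50.8), from 18.9 to 88.3 CPM in Msh3+/- (median 69.1) and from 12.4 to 101 CPM in WT cortex (median 38.3). All 6 ranges overlapped, and the widest were those of Q140 and WT. Junb (ENSMUSG00000052837, chr8:84974484-84978718) ran from 32.7 to 122 CPM in Q140 and from 24 to 132 CPM in WT, again with overlap. Fosb (ENSMUSG00000003545, chr7:19302696-19310051) had the narrowest relative range of the AP-1 genes, 9.71 to 45.3 CPM over all libraries.

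Among the EGR genes, Egr2 (ENSMUSG00000037868, chr10:67535475-67542188) had the largest ratio of the highest to the lowest library and Egr1 (ENSMUSG00000038418, chromosome 18) the smallest. Egr2 ranged from 5.67 to 38.8 CPM in Q140 (median 13.6) and from 2.27 to 36.3 CPM in WT (median 11.8), so the lowest and the highest WT libraries enclosed nearly the whole Q140 range. Egr1 ranged from 373 to 1040 CPM in Q140 and from 438 to 956 CPM in WT. Egr4 (ENSMUSG00000071341, chr6:85511121-85513589) averaged 31 ± 7.87 CPM in Q140 Msh3-/-, 27 ± 5.66 CPM in Q140 Msh3+/- and 31.1 ± 10.3 CPM in Q140. In the genotypes without Q140 it averaged 23.5 ± 5.74 CPM in Msh3-/-, 26.9 ± 5.88 CPM in Msh3+/- and 24.2 ± 8.86 CPM in WT (SD, n = 8 each), and the ranges of all 6 overlapped.

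The remaining 4 genes showed the same overlap. Arc (ENSMUSG00000022602, chr15:74669083-74672570) had a median of 465 CPM in Q140, with a range of 276 to 711 CPM, against a median of 280 CPM in WT with a range of 118 to 842 CPM. Npas4 (ENSMUSG00000045903, chr19:4984355-4990316) ran from 11.9 to 51.2 CPM in Q140 and from 9.97 to 72.2 CPM in WT. Nr4a1 (ENSMUSG00000023034, chr15:101254269-101274795) ran from 100 to 280 CPM in Q140 and from 53.1 to 321 CPM in WT. Dusp1 (ENSMUSG00000024190, chr17:26505590-26562128) ran from 31.6 to 87.3 CPM in Q140 and from 18.6 to 98 CPM in WT.

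**Figure D1:**
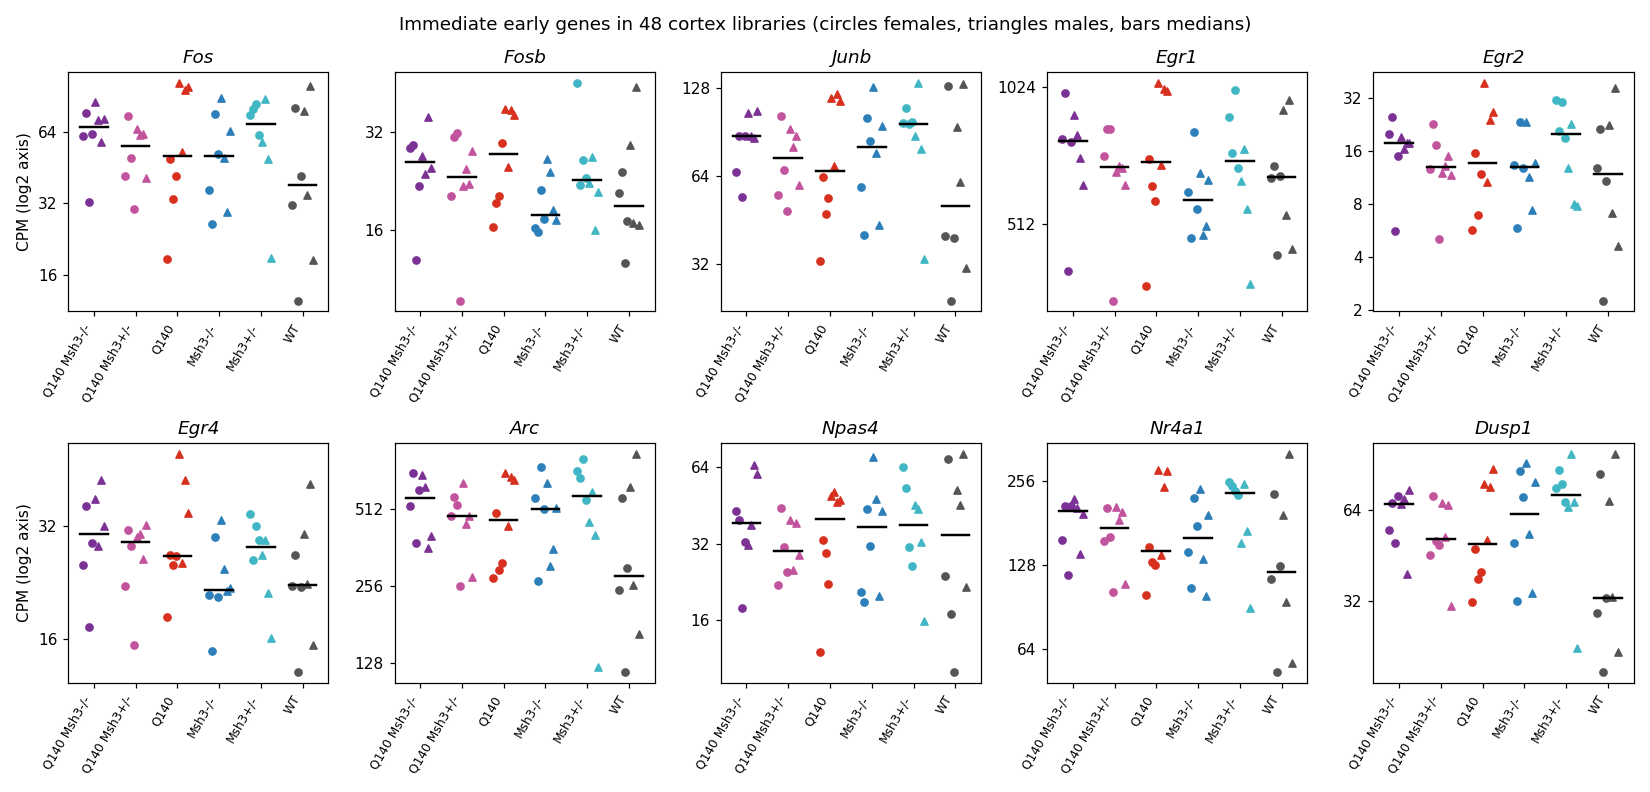
Level of each of the 10 genes in CPM (log scale) in the 8 libraries of each genotype, 1 point per library (circles females, triangles males), with a bar at the group median. For every gene the 6 genotypes overlap, and the WT libraries span a wide range, from 12.4 to 101 CPM for Fos.

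These genes were among the most variable of their level. After group and sex means were removed, the SD of log2 CPM was 0.874 for Egr2, 0.717 for Fos, 0.681 for Arc and 0.662 for Npas4. It was 0.604 for Dusp1, 0.602 for Junb, 0.573 for Nr4a1, 0.447 for Fosb, 0.412 for Egr1 and 0.394 for Egr4. The median over all genes tested was 0.148. Set beside the 500 genes of most similar mean level, whose median SD was 0.069 to 0.117, each of the 10 exceeded between 99.4% and 100% of them. The ratio of the highest to the lowest CPM over the 48 libraries was 17.1 for Egr2 and 3.01 for Egr1, the ends of the range. Genotype accounted for 2.9% (Npas4) to 15.7% (Egr4) of the variance of a member, against 11.7% for the median gene tested and 10.9% that the 5 genotype degrees of freedom take on their own.

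**Figure D2:**
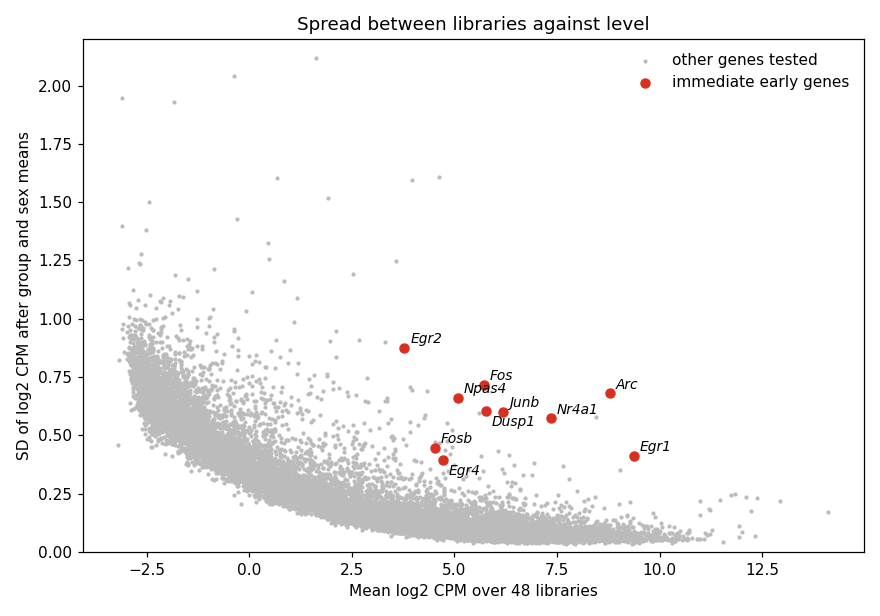
SD of log2 CPM after removal of group and sex means (vertical axis) against mean level (horizontal axis) for all 19547 genes tested, with the 10 immediate early genes labelled. All 10 lie at the upper edge for their level, between 0.394 (Egr4) and 0.874 (Egr2).

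The 10 genes went up and down together from mouse to mouse. Over the 45 pairs, the Pearson correlation of log2 CPM across the 48 libraries, with group and sex means removed, had a median of 0.827 and ran from 0.491 (Fosb with Dusp1) to 0.963 (Fos with Junb). Spearman's rho had a median of 0.817 and ran from 0.535 to 0.971. All 45 pairs passed a two-sided permutation test within genotype and sex with Benjamini-Hochberg adjustment, by both measures, with a largest adjusted p of 0.00339. In 32 pairs no permutation was as extreme, giving 1e-05, the smallest p that 100000 permutations can give. Without the 2 libraries farthest from the median of the first gene, the pairs ran from 0.497 to 0.954. The members' median absolute correlation with 15184 other genes was 0.125. All of these genes were counted in the same libraries, so a shared property of a library enters every pair.

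Within this common movement, amplitudes and partners differed. Per unit of the mean log2 level of the other 9, Egr2 moved by 1.59, Fos by 1.33 and Arc by 1.17, whereas Egr1 moved by 0.638, Egr4 by 0.619 and Fosb by 0.579. The first principal component held 82.8% of the variance of the standardised values and every gene loaded on it with the same sign, from 0.272 (Fosb) to 0.341 (Fos). The second held 8.06% and set Fosb (0.63), Egr4 (0.328) and Egr1 (0.271) apart from Dusp1 (-0.457) and Junb (-0.266). Fosb was the gene with the lowest mean correlation with the rest, 0.685, and Npas4 the next, 0.692. Within single genotypes of 8 libraries, sex means were not removed, so differences between the sexes enter the values. The median of the 45 correlations was 0.683 in Q140 Msh3-/-, 0.723 in Q140 Msh3+/- and 0.932 in Q140. It was 0.826 in Msh3-/-, 0.826 in Msh3+/- and 0.928 in WT. Differences between genotypes were not tested, and these values are not on the footing of those with sex means removed.

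**Figure D3:**
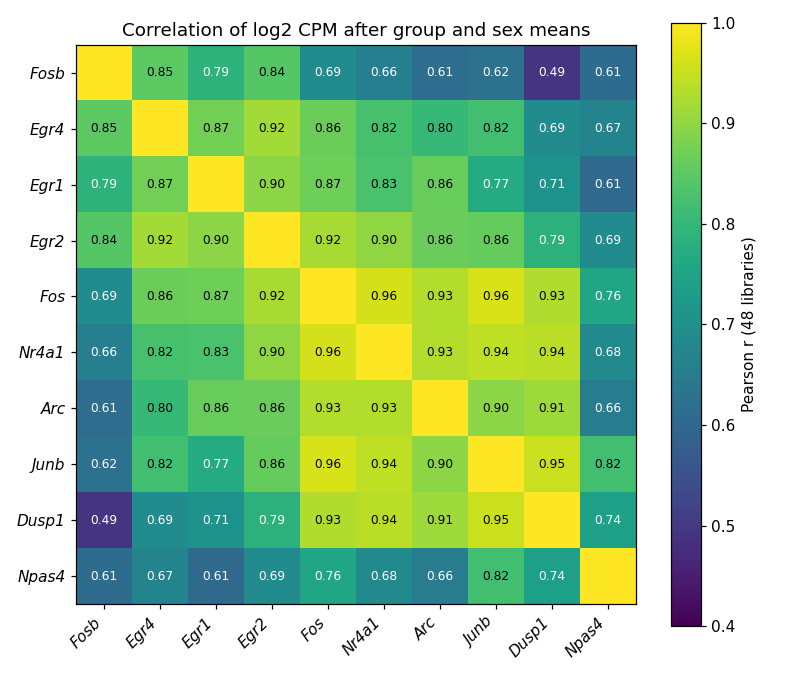
Pearson r of log2 CPM between each pair of the 10 genes over the 48 libraries, with group and sex means removed. Every pair is positive, from 0.491 for Fosb with Dusp1 to 0.963 for Fos with Junb.

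The mean of the 10 centred log2 levels, used here as a description with no test, ran from -1.48 in WT female 3 to 0.92 in WT male 3, which is 5.26-fold on the linear scale. All 10 genes were above their mean in 11 libraries and all 10 below it in 11 others, and 26 were mixed. The lowest 4 libraries were WT female 3 (-1.48), WT male 4 (-1.1), Msh3+/- male 4 (-1.01) and Q140 female 1 (-0.94), and the highest after WT male 3 were Q140 males 1 (0.8) and 4 (0.67). In WT female 3, Fos was at 12.4 CPM, Egr2 at 2.27 CPM and Arc at 118 CPM. That library also had the lowest summed glutamatergic marker level of all 48 (1667 CPM) and the highest summed oligodendrocyte level (2265 CPM). WT female 4, with a mean of -0.56, was next in both (1680 and 2206 CPM). Sample names of WT females 3 and 4 start with MQC72 and PQ71, and those of all other libraries with Mh3Q or Msh3Q. Both enter every comparison with WT over all libraries. The part of these differences in the low values was not tested. By genotype the mean was 0.18 ± 0.34 in Q140 Msh3-/-, -0.04 ± 0.37 in Q140 Msh3+/-, 0.06 ± 0.61 in Q140, -0.08 ± 0.47 in Msh3-/-, 0.16 ± 0.54 in Msh3+/- and -0.28 ± 0.83 in WT (SD, n = 8 each). The ranges of all genotypes overlapped.

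**Figure D4:**
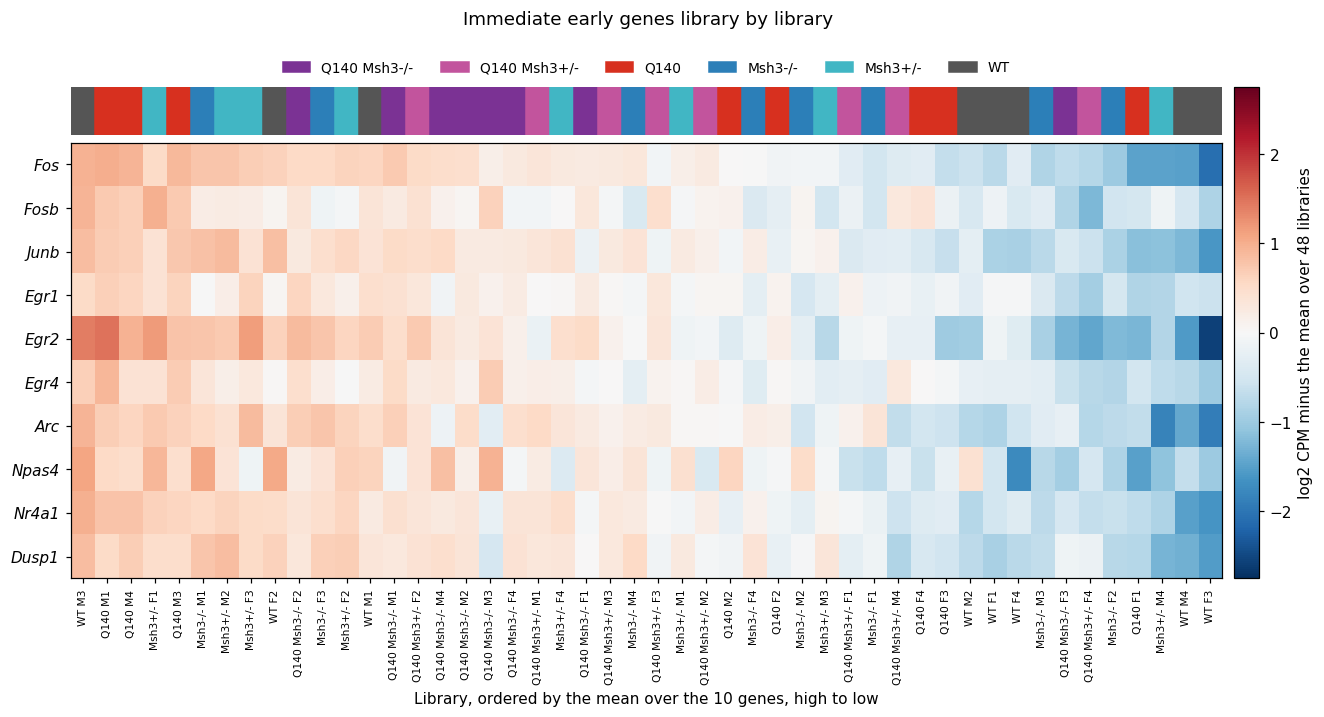
Centred log2 CPM of the 10 genes (rows) in the 48 libraries (columns), ordered by their mean over the 10 genes from high to low, with genotype as a colour bar and sex as F or M in the library name. Libraries at either end are nearly uniform over the genes, and both ends are WT libraries, male 3 with a mean of 0.92 and female 3 with -1.48.

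Across the libraries this mean followed few measures of library composition. On the log2 scale with group and sex means removed from both, its Pearson r was 0.085 (rho 0.059) with the library total, -0.25 (rho -0.153) with the mitochondrial share and 0.16 (rho 0.134) with the glutamatergic marker sum. It was -0.277 (rho -0.264) with the blood marker sum. The largest of the 14 measures was 0.371 (rho 0.356), with a list of 6 hippocampal markers (Prox1, Dsp, Lct, Calb2, Neurod1 and Wfs1). That list, summing to 108 to 171 CPM over the 48 libraries, was not tested as a measure of hippocampal tissue. Without the 2 farthest libraries its r was 0.404. These are descriptions over 48 libraries, and their part in the values of the members was not tested. Libraries whose sample names share a prefix were closer in the members' residual mean, with a median absolute difference of 0.314 over 33 pairs, against 0.489 over the 1095 other pairs. The correlation within prefixes was 0.167 (Fosb) to 0.482 (Junb) for the members and 0.0943 for the median gene tested. The members lay above 61% (Fosb) to 91.3% (Junb) of all genes tested. The labels do not say what the prefix marks.

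The named genes most like the members were largely on the lists of other response genes below, which were chosen with earlier results of these data known. Other genes were ranked by Pearson r with the mean of the 10 genes over the 48 libraries, with group and sex means removed. Of the 15184 ranked, 13168 had more than a systematic name, and only these are named here. The 10 highest of them were Dusp6 (0.938), Plk2 (0.914), Trib1 (0.908), Adrb1 (0.893), Sik1 (0.883), Csrnp1 (0.865), Chrm4 (0.83), Ier2 (0.826), Cyr61 (0.817) and Dusp5 (0.81). Dusp5 and Dusp6 encode ERK phosphatases, Plk2 and Sik1 encode kinases, Trib1 a pseudokinase, Adrb1 the beta-1 adrenergic receptor and Chrm4 the M4 muscarinic receptor. Their own spread was smaller in part, with an SD of log2 CPM of 0.137 for Plk2 and 0.18 for Adrb1. Of the 15184 genes, systematic names included, 13 had an r above 0.8 and 143 (0.942%) had an r above 0.5.

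Lists of related genes differed in how closely they followed. Of 24 other rapid response genes, 17 had an r above 0.5 and the median was 0.699, from Dusp6 (0.938) and Trib1 (0.908) down to Rheb (0.321). Of 18 later response genes, which include neuropeptide and neurotrophin genes, 2 did so, Plk2 (0.914) and Ptgs2 (0.624), with a median of 0.177 and Penk lowest (-0.275). Of 18 upstream regulators, 1 did so, the SRF gene Srf (0.573), with a median of 0.015. Next in that list was the ERK1 gene Mapk3 (0.318), and the NMDA receptor subunit gene Grin2a was lowest (-0.314). None of 13 clock output genes did so (median 0.031, from Nr1d1 at 0.398 and Ciart at 0.376 to Npas2 at -0.283), nor any of 17 stress and glucocorticoid response genes (median 0.109, from Dnajb1 at 0.485 and Pdk4 at 0.448 to Fkbp5 at -0.14). All of these are correlations in the same 48 libraries and carry no p.

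No immediate early gene was called in the comparison of Q140 with WT cortex, in which 20 of 19547 genes (0.102%) passed an adjusted p of 0.05 in edgeR's quasi-likelihood test. No member had an unadjusted p under 0.05 either, where 8.8% of all genes did, and DESeq2 likewise called 0, with 0 at an unadjusted p under 0.05. The log2 fold change (Q140 over WT) was above 0 for 9 of the 10 genes, with a median of 0.25, against 0.001 for the median of all genes. Because the 10 genes moved together across libraries (median r 0.827), shared signs among them are not separate results, here or in any comparison below. Egr4 had the largest, 0.35 ± 0.19 (SE, 95% interval -0.03 to 0.74, edgeR adjusted p = 0.609). Fos had 0.27 ± 0.329 (interval -0.39 to 0.94), Arc 0.31 ± 0.321 (-0.34 to 0.96) and Npas4 -0.1 ± 0.313 (-0.73 to 0.53). Without WT male 3 alone, the library with the highest mean of the 10 genes, the fold change was 0.48 for Fos, 0.58 for Arc and 0.53 for Nr4a1, and without WT male 4 it was 0.13 for Fos and 0.14 for Nr4a1, still with no call. The upper bounds of the intervals over all libraries ran from 0.53 (Npas4) to 1.03 (Egr2). The standard errors were 0.288 in the median of the 10 genes, against 0.0734 for the median of all genes.

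On the Msh3 mutant backgrounds the Q140 allele likewise gave no call. In Q140 Msh3+/- against Msh3+/-, where 0.0512% of all genes were called, 0 of the 10 passed and 0 had an unadjusted p under 0.05, in edgeR and in DESeq2, beside 7.77% of all genes in edgeR. All 10 fold changes were below 0, with a median of -0.31, the lowest being Egr2 (-0.49 ± 0.395, edgeR adjusted p = 0.81) and Dusp1 (-0.39 ± 0.283, adjusted p = 0.778). In Q140 Msh3-/- against Msh3-/-, with 0.0205% of all genes called, 0 of the 10 passed in edgeR or DESeq2, and 9 of 10 fold changes were above 0 with a median of 0.2. Egr4 had an unadjusted p of 0.0496 there in edgeR (log2 fold change 0.38 ± 0.19, adjusted p = 0.73), 1 gene of 10 beside 6.77% of all genes.

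In carriers of Q140 against non-carriers, averaged over the 3 Msh3 genotypes, 0 of the 10 were called by edgeR or DESeq2, where edgeR called 1.47% of all genes. Egr4 alone had an unadjusted p under 0.05 in edgeR, and 1 member had one in DESeq2 (15.1% of all genes in edgeR). Its log2 fold change was 0.24 ± 0.11 (interval 0.02 to 0.46, edgeR adjusted p = 0.281). Fos had 0.09 ± 0.189, Arc 0.07 ± 0.185 and Egr2 0.01 ± 0.228. Fosb (0.18 ± 0.128) and Egr1 (0.15 ± 0.115) lay above 0 and Npas4 (-0.09 ± 0.181) below it, each with an interval that included 0.

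Msh3 genotype without Q140 gave no call either. In Msh3+/- against WT cortex (0.0307% of all genes called), 0 of the 10 were called by edgeR or DESeq2, and the number at an unadjusted p under 0.05 was 0 in edgeR, beside 4.96% of all genes, and 1 in DESeq2. All 10 fold changes were above 0, with a median of 0.41. Dusp1 had the largest, with 70.3 ± 22.3 CPM in Msh3+/- and 48.2 ± 30.8 CPM in WT (SD, n = 8 each). Its log2 fold change was 0.57 ± 0.285 (interval -0.01 to 1.14, edgeR adjusted p = 0.963). All 5 libraries with choroid plexus or pituitary markers belong to these 2 groups. Among them are the libraries with the highest Dusp1 of each group, Msh3+/- male 2 and WT male 3 (98 CPM each). Without the 5 libraries no member was called. With the sample name prefix as a random block (limma), 2 members had an unadjusted p under 0.05 and 0 were called. In Msh3-/- against WT (0.113% of all genes called), 0 of the 10 were called and 0 had an unadjusted p under 0.05 by either tool (10.8% of all genes in edgeR), with 5 fold changes above 0 and 5 below, from -0.2 (Fosb) to 0.38 (Dusp1). The comparisons named so far share the WT or the Msh3 groups, so their fold changes are not independent of one another.

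Msh3 dose within Q140 cortex gave no call. In Q140 Msh3+/- against Q140 (0.0307% of all genes called) and in Q140 Msh3-/- against Q140 (0.102% called), 0 of the 10 were called and 0 had an unadjusted p under 0.05, in edgeR and in DESeq2. Of all genes, 6.22% and 6.86% had one in edgeR. Fos had log2 fold changes of -0.16 ± 0.328 and 0.12 ± 0.324 in the 2 comparisons, Arc -0.06 ± 0.321 and 0.16 ± 0.321. Over Q140 status, Msh3-/- against Msh3+/+ (0.215% of all genes called) gave 0 calls and 0 at an unadjusted p under 0.05 by either tool (14.9% of all genes in edgeR), with Dusp1 at 0.27 ± 0.201 and Egr1 at -0.08 ± 0.141.

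The opposite signs of the Q140 fold changes on the WT and Msh3+/- backgrounds were tested directly. The interaction of Q140 with Msh3+/- was below 0 for all 10 genes, which move together, with a median of -0.51. No gene at all passed it (0% called in edgeR, 0 in DESeq2). The members' unadjusted p ran from 0.142 (Nr4a1, -0.58 ± 0.391) to 0.618 (Npas4, -0.22 ± 0.446), so 0 were under 0.05, beside 3.3% of all genes, and 0 were so in DESeq2. The interaction with Msh3-/- had a median of 0.02, also with 0% of genes called and 0 members under 0.05 by either tool (3.2% of all genes in edgeR), Fos being at 0.01 ± 0.463. An F test of any difference among the 6 genotypes called 0.45% of all genes and 0 members, with 0 under an unadjusted p of 0.05 by edgeR (11.4% of all genes) or DESeq2. Egr4 had the lowest (edgeR adjusted p = 0.622).

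**Figure D5:**
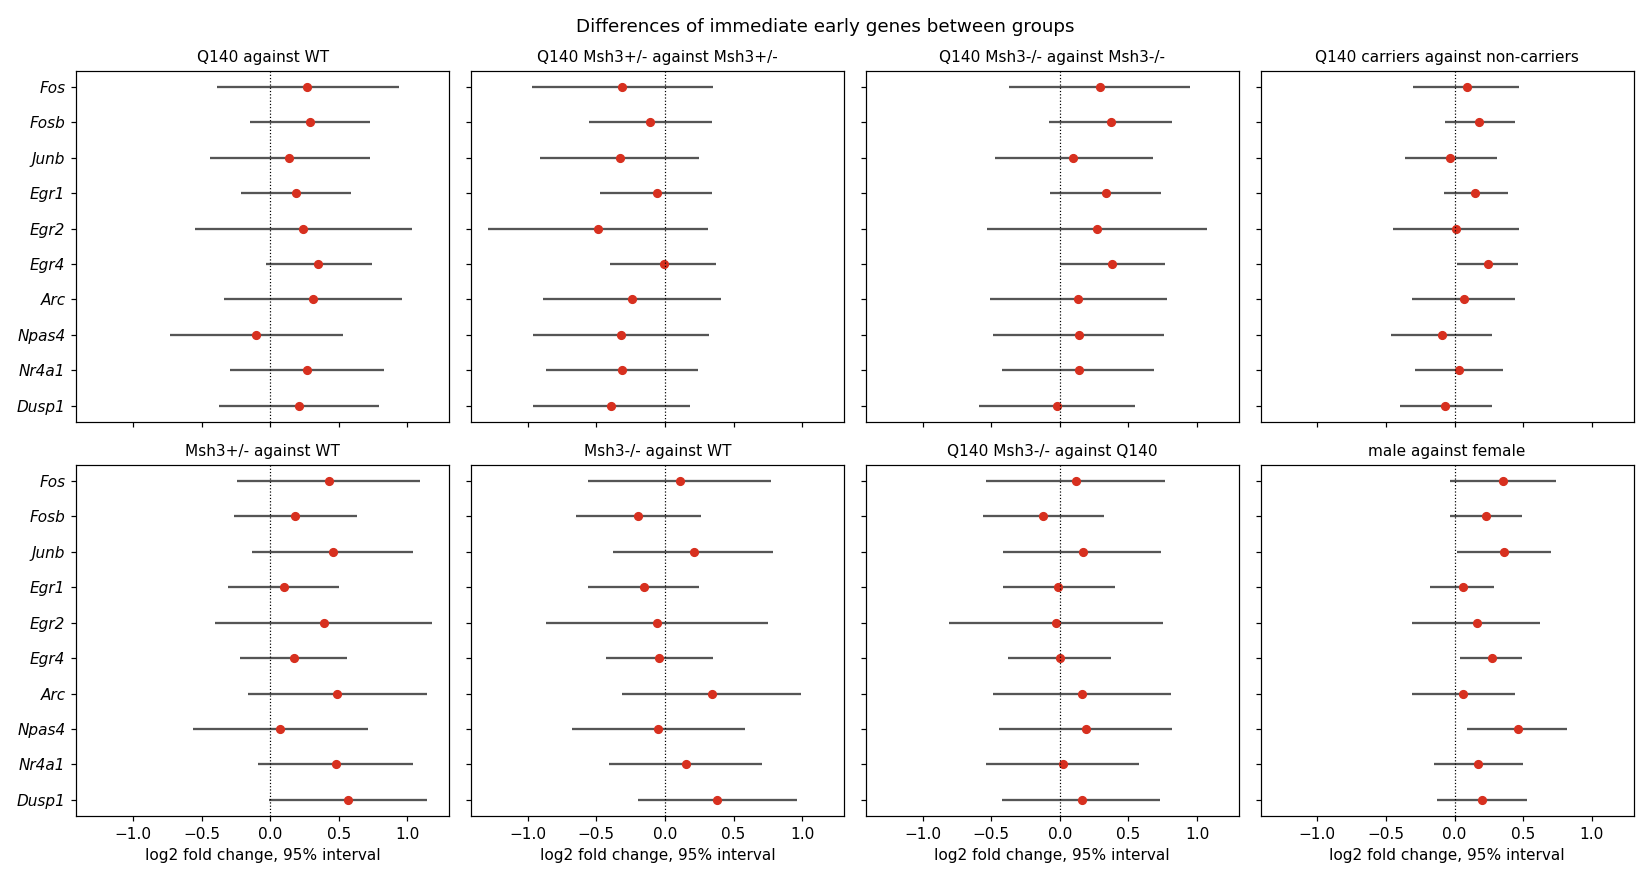
Log2 fold change of each of the 10 genes in 8 of the comparisons, 1 panel each, with 95% intervals from edgeR (horizontal lines) and 0 dotted. The intervals of Q140 against WT all include 0, and the fold changes lie between -0.1 and 0.35.

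Between the sexes, the share of all genes with an unadjusted p under 0.05 was the largest of the planned comparisons, and so was the number of members. In males against females, adjusted for genotype, 4.28% of all genes were called and 0 of the 10, in edgeR and in DESeq2, while 3 of 10 had an unadjusted p under 0.05 in each tool, beside 17.4% of all genes in edgeR. All 10 fold changes were above 0. Npas4 had 0.46 ± 0.182 (interval 0.09 to 0.82, edgeR adjusted p = 0.159), Junb 0.36 ± 0.167 (0.02 to 0.7, adjusted p = 0.242) and Egr4 0.27 ± 0.11 (0.04 to 0.49, adjusted p = 0.175). All 5 libraries with choroid plexus or pituitary markers were males, and without them the fold changes were 0.44, 0.33 and 0.28 for these genes.

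Split by genotype, the sexes were farthest apart in Q140 mice, a split looked at after the values had been seen. Fos was at 52.7 to 104 CPM in the 4 Q140 males and at 18.7 to 49.1 CPM in the 4 Q140 females. Npas4 was at 46.6 to 51.2 CPM in Q140 males and at 11.9 to 33 CPM in Q140 females. Junb (69.1 to 122 CPM in Q140 males, 32.7 to 63.6 CPM in Q140 females) and Dusp1 (51 to 87.3 CPM in males, 31.6 to 47.4 CPM in females) also did not overlap, whereas the other 6 genes did. How many of all genes tested were separated in this way was not counted, so the separation is a description only. In a model with 1 mean per genotype and sex, male over female within Q140 was 1.3 ± 0.452 for Fos (edgeR adjusted p = 0.75) and 1.34 ± 0.525 for Egr2 (edgeR adjusted p = 0.797). There, 9 of 10 members had an unadjusted p under 0.05, Arc being the exception, and 0 were called, beside 0.046% of all genes called and 5.85% at an unadjusted p under 0.05. The members move together, so these are not 9 separate results. Leaving out 1 Q140 library at a time, the members with an unadjusted p under 0.05 numbered from 4 (without female 1 or without male 1) to 10 (without male 2), all 10 fold changes stayed above 0 and 0 were called.

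In Msh3+/- mice all 10 male over female fold changes were below 0, and no member was called. Arc was at 123 to 595 CPM in the 4 Msh3+/- males and at 554 to 802 CPM in the 4 females, which gave -0.8 ± 0.432 on the log2 scale (edgeR adjusted p = 0.725). These values lean on male 4, in which Arc was at 123 CPM. Without it the median fold change was -0.28 in place of -0.45, Arc was at -0.51 (edgeR adjusted p = 0.851), and Junb and Dusp1 were at 0. The other 3 males are those with choroid plexus or pituitary markers, and without them male 4 stands alone against the females. The median male over female fold change was 0.22 in Q140 Msh3-/-, 0.08 in Q140 Msh3+/-, 0.9 in Q140, 0.16 in Msh3-/-, -0.45 in Msh3+/- and 0.48 in WT. Whether the sex effect differed among the 6 genotypes was tested with an F test for each gene. No gene passed it by edgeR (0% called) or DESeq2 (0 called), and 0 members had an unadjusted p under 0.05 in edgeR (4.42% of all genes) and 2 in DESeq2, with edgeR p from 0.0541 (Egr1) to 0.405 (Dusp1). Each of these means rests on 4 mice.

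In the lists of related genes, edgeR made calls in carriers against non-carriers and between the sexes. In carriers, 1 of 18 later response genes was lower, the enkephalin precursor gene Penk (log2 fold change -0.22 ± 0.0432, edgeR adjusted p = 0.00369), and 1 of 18 upstream regulators, Grin2a (-0.11 ± 0.0284, adjusted p = 0.0243). DESeq2 called these and also Nrn1 and Camk4. None of the 24 rapid response, 13 clock output or 17 stress and glucocorticoid response genes was called there by either tool, and the numbers at an unadjusted p under 0.05 were 2, 3 and 5 in edgeR and 3, 3 and 5 in DESeq2. Of all genes, 1.47% were called and 15.1% had an unadjusted p under 0.05 there in edgeR. The median fold change was 0.071 over the rapid response genes and -0.031 over the later response genes, against -0.001 over all genes tested.

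In the 8 other genotype contrasts, the 2 interactions and the F test over genotypes, edgeR called 0 list genes, with at most 6 genes of a list at an unadjusted p under 0.05. DESeq2 called Penk in Q140 Msh3+/- against Msh3+/- and in the F test, and Dbp in Msh3-/- against Msh3+/+. Between the sexes edgeR called 8 of the 90 list genes, beside 4.28% of all genes. Rgs2, Rps6ka5, Mef2a, Mapk3 and Tef were higher in males, from 0.06 (Mef2a) to 0.19 (Rps6ka5) on the log2 scale. Penk (-0.15), the heat shock gene Hsph1 (-0.13) and the endothelial growth factor gene Vegfa (-0.16) were lower in males. No rapid response gene was called between the sexes by edgeR or DESeq2, and 1 had an unadjusted p under 0.05 in each.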

How the data were processed

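RNA of 48 cortex libraries was sequenced. The authors deposited raw counts per gene and FPKM values that scale them by gene length and library total. The submitters' processing notes name HTSeq 0.12.3, SAMtools 1.10 and STAR 2.7.5c, and mm10 and GRCm38 as builds. A stranded TruSeq kit was used, per the labels' protocols. The annotation release and strand setting are not given in the sources used here. The extraction protocol speaks of striatal tissue at another age, against all other labels (cortex, 12 months), which were followed.

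The members and all gene lists were chosen with earlier results of these data known. Groups came from the genotype labels, and each library, with its own sample name, was taken as 1 mouse. Genes were filtered with filterByExpr (minimum count 10, total 15), scaled by TMM and tested two-sided on the counts with edgeR 4.0.16 (R 4.3.3, glmQLFit and glmQLFTest, robust) in 1 model of 6 genotypes plus sex over all 48 libraries. Calls are Benjamini-Hochberg adjusted p under 0.05 over 19547 genes. Intervals are 95%. FPKM values served only to compare levels between genes. Correlations used log2 CPM (prior count 2). Genes named beside the members are the called genes of each list and its 2 genes of highest and 1 of lowest correlation with the members. The 10 other genes most correlated with them (mean CPM at least 1) are also named, leaving out gene models with only a systematic name. Promoter sequences are from RefSeq and gene coordinates from GENCODE M21. DESeq2 1.42.0, limma 3.58.1 and other settings were alternatives, and the sex by genotype model was added after the values had been seen. The fits and the correlation test were tested on simulated data. Replicate numbers were not taken to pair the libraries. Same-numbered libraries had a median correlation of -0.0207 in their deviations, although 20 of 48 libraries correlated best with 1 of their own number.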

Additional observations from a re-analysis of the deposited data

Results flagged for a closer look

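Over the 10 genes and 6 genotypes, 60 sets of 8 libraries were screened for a library far from the others (Dixon's test). The screen flagged 3, no more than the 1 in 20 that chance gives. The sets are not independent, since the genes share libraries and move together. Fosb was at 45.3 CPM in Msh3+/- female 1, with 26.9 CPM the next highest of that genotype. Egr1 was at 347 CPM in Q140 Msh3+/- female 4, with 621 CPM the next lowest. Dusp1 was at 22.2 CPM in Msh3+/- male 4, with 65.5 CPM the next lowest.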

How the results depend on the processing

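No member was called in any of 737 further results, 113 under alternative settings and 624 from the 48 models that each left out 1 library. Each result is 1 comparison read from a refitted model, so they overlap strongly. The lowest edgeR adjusted p was 0.0632 (Npas4, male against female, without WT female 2). Under the 8 alternatives for it, the median of the 45 correlations lay between 0.788 (within Q140 carriers) and 0.874 (within non-carriers), and single genotypes of 8 libraries ranged more widely. Counts of calls over all genes moved more. With DESeq2 they were 34 for Q140 against WT (edgeR 20), 22 for Q140 Msh3+/- against Msh3+/- (10), 465 for carriers against non-carriers (288), 10 for Msh3+/- against WT (6), 159 for Msh3-/- against Msh3+/+ (42) and 184 for any difference among the genotypes (88). With a plate column term they were 11 for Q140 against WT and 102 for carriers. Without the 5 libraries that carried other tissue they were 8, 181, 2 for Msh3+/- against WT and 497 for male against female (837). With only the groups compared they were 2 for Q140 Msh3-/- against Msh3-/- (4), 2 for Msh3+/- against WT, 13 for Msh3-/- against WT (22) and 12 for Q140 Msh3-/- against Q140 (20). The replicate block gave 17 for Q140 Msh3+/- against Msh3+/- and 91 for Msh3-/- against Msh3+/+. Libraries of the same number had a median correlation of -0.0207 (from -0.166 to 0.398), against -0.0257 for other numbers of the same sex. The numbers were not taken to pair mice, although 20 of 48 libraries correlated best with 1 of their own number. How many would do so without any pairing was not computed. In the fits without 1 library each, calls ran from 13 to 24 for Q140 against WT, from 201 to 475 for carriers, from 13 to 24 for Q140 Msh3-/- against Q140 and from 28 to 109 for Msh3-/- against Msh3+/+. The causes were not tested.

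Fold changes near 0 changed sign. For Q140 against WT, Npas4 was 0.05 with the plate column, 0.13 with the name prefix as a random block and 0.09 without the 5 libraries. In carriers against non-carriers, Junb was 0.08 with the prefix and 0.01 without the 5 libraries, Egr2 was -0.01 with the replicate block, -0.01 with the plate column and 0 without the 5 libraries, Npas4 was 0.03 with the prefix, and Dusp1 was 0.03 with the prefix and 0 without the 5 libraries. Leaving out 1 library each, Q140 against WT ran from -0.03 (without Q140 male 1) to 0.61 (without WT male 3) for Egr2 and from -0.24 (without WT female 4) to 0.14 (without WT female 2) for Npas4. Carriers against non-carriers ran from -0.08 to 0.05 for Junb, from -0.08 to 0.13 for Egr2, from -0.02 to 0.12 for Nr4a1 and from -0.12 to 0.01 for Dusp1, and male against female from -0.01 to 0.13 for Arc. A sex by genotype model, added after the values had been seen, gave 780 calls for male against female. Depth did not limit the members, whose smallest count was 105.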
